A study of Gallus gallus with 6 samples.

Results

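Serpins are proteins of one fold, most of which trap a protease by offering it a reactive loop as bait. The genes described here are 4 secreted serpins, SERPINF1, SERPINE2, SERPINI1 and SERPIND1, and SERPINH1, a serpin that inhibits no protease and stays in the endoplasmic reticulum as a chaperone of collagen. They were taken by gene symbol from the annotation of the array, which gave 5 genes on 7 probe sets, among 13009 genes with a probe set of their own and 9 other serpins. The other serpins are genes whose symbol starts with SERPIN, so any serpin under another symbol is left out. Every probe set was kept, and the brightest by its mean over the 6 arrays leads its gene. Only SERPINF1 has more than 1.

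The tissue is the chorioallantoic membrane (CAM), the vascularised membrane under the shell of the chick egg, from Brown Leghorn embryos. After 10 days of culture the membrane of a shell-less embryo was cut with a scalpel, its epithelium was scraped off and the area was covered with a nylon grid. Granulation tissue (wound) and uninjured membrane of the same eggs (control) were taken 6 days later from 3 eggs, which gave 3 wound and 3 control Affymetrix chicken GeneChips. The embryos carry no genetic change and received no agent, and the study describes the model as lacking immunocompetent cells, while it also cites reports of inflammatory cells resembling neutrophils and monocytes in membranes stimulated with growth factors. The samples are pieces of whole tissue, in which fewer cells of a type and less RNA per cell cannot be told apart.

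Values are log2 intensities from robust multi-array averaging (RMA), as the authors deposited them. They ran from 1.16 to 15.1 and the array medians from 3.01 to 3.05. The median of all probe set means was 3.05, and a probe set below it is called dim here. A gene rose or fell where limma, fitted on all 38439 probe sets, gave an adjusted p under 0.05 with any fold change. By that rule 3.92% of the 13009 genes, each by its brightest probe set, were higher and 0.392% lower, and in 28.6% the wounds and controls did not overlap. For counts at an unadjusted p, or with limma's trend and robust options, no share of all genes is given. Those counts are a description. Bright probe sets shifted together: the 2253 at a mean level of 8 or more had a median change of 0.30 on the log2 scale, against 0.0011 over all probe sets, and quantile normalization took the former to 0.01. With 3 arrays a group, the smallest p that an exact two-sided permutation test of 1 gene can give is 0.1, or 0.25 with wounds and controls paired. The labels name no egg, and a wound and a control of equal replicate number were treated as a pair, on grounds given with the processing. Where adding that pairing to the fit ended a call, its adjusted p follows the main one, marked "blocked".

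Serpins act at several points of wound repair. SERPINE2 (protease nexin-1) blocks thrombin, plasmin and the plasminogen activators close to the cell surface, SERPINI1 (neuroserpin) blocks tissue plasminogen activator, and SERPIND1 (heparin cofactor II) blocks thrombin once bound to dermatan sulfate or heparan sulfate. SERPINF1, the pigment epithelium-derived factor (PEDF), keeps the serpin fold without inhibiting proteases and is known as an inhibitor of blood vessel growth. SERPINH1 (HSP47) binds folded procollagen and escorts it out of the endoplasmic reticulum. These roles are known mostly from mammals.

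Of the 5 genes, 3 rose in the wound (SERPINI1, SERPINF1 and SERPINE2), where 3.92% of all genes did. None fell by the test, and SERPINH1 and SERPIND1 did not pass it. With the pairing in the fit 1 of the 5 passed, SERPINF1, where 1.45% of all genes did in either direction. In 4 of the 5 the wounds and controls did not overlap, against 28.6% of all genes, 3 with the wounds above and SERPINH1 with the wounds below. The genes were chosen with earlier results of these arrays known, so these shares are a description.

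**Figure D1:**
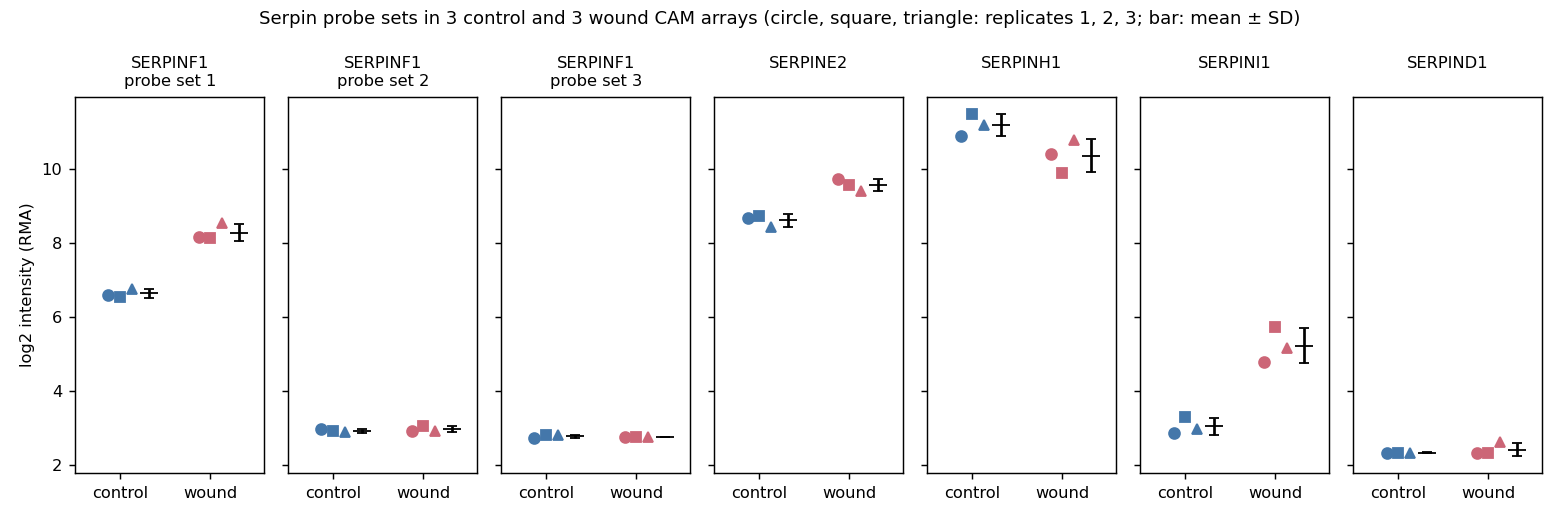
Log2 intensity (RMA, vertical axis) of the 7 probe sets in each of 3 control (blue) and 3 wound (red) arrays, with circles, squares and triangles for replicates 1, 2 and 3 and bars for mean ± SD. SERPINF1 by its brightest probe set, SERPINE2 and SERPINI1 lie higher in every wound than in any control, SERPINH1 lies lower, and the other 3 probe sets stay under 3.05.

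SERPINI1, named for its expression in neurons and an inhibitor of tissue plasminogen activator, showed the largest difference of the 5. Its probe set (Gga.4416.1.S1_at) measured 2.86, 3.30 and 2.97 in the 3 controls and 4.79, 5.71 and 5.17 in the 3 wounds, on the log2 scale. The controls lay at about the median level of the array and every wound lay at least 1.49 above the highest control. The group means were 3.04 ± 0.23 and 5.22 ± 0.46 (SD, n = 3 each), a rise of 2.18 (standard error 0.27), or 4.53-fold with a 95% confidence interval of 2.77 to 7.42 (limma adjusted p = 0.0371, 0.0502 blocked, 0.0721 after quantile normalization). Taken by replicate number the wounds exceeded their controls by 1.93, 2.41 and 2.20, so the pair of replicate 2 stood highest in both tissues and differed most. Since the controls were near the floor of the array, the fold may be understated. The call was lost without any 1 of the 6 arrays, at adjusted p from 0.0513 without wound replicate 1 to 0.139 without control replicate 1, while the difference stayed between 1.94 and 2.40.

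Markers of neurons were measured beside SERPINI1, and their part in its rise was not tested. Over all genes 3.92% rose and 0.392% fell. Of 9 measured neuronal genes, 0 rose and 0 fell (limma; 0 higher and 1 lower at an unadjusted p under 0.05, and 0 in either direction with limma's trend and robust options), with a median change of -0.10. The brightest, TUBB3 and NEFL, which encode cytoskeletal proteins of neurons, measured -0.04 (adjusted p = 0.998) and -0.33 (adjusted p = 0.877). The target of neuroserpin, PLAT (tissue plasminogen activator), measured 4.07 in controls and differed by -0.26 (adjusted p = 0.494), with its 3 wounds below its 3 controls.

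SERPINF1, the vessel growth inhibitor PEDF, was the member with the smallest adjusted p. The leading probe set (Gga.11614.1.S1_at) measured 6.59, 6.55 and 6.76 in the controls and 8.15, 8.13 and 8.53 in the wounds. The groups were tight and 1.36 apart at their nearest. The means were 6.63 ± 0.12 and 8.27 ± 0.23 (SD, n = 3 each), a rise of 1.64 (standard error 0.14), or 3.11-fold with an interval of 2.43 to 3.97 (limma adjusted p = 0.0185). The pairs differed by 1.56, 1.58 and 1.77. Of the 5 genes, SERPINF1 alone kept its call both with the pairing in the fit (adjusted p = 0.0417) and after quantile normalization (adjusted p = 0.0372). Without control replicate 1, 2 or 3 its adjusted p was 0.0766, 0.0756 and 0.0686, and without a wound it stayed under 0.05.

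The other 2 probe sets of SERPINF1 were dim and flat. Gga.1180.2.S1_a_at measured 2.98, 2.91 and 2.88 in controls and 2.91, 3.05 and 2.91 in wounds, a difference of 0.04 (95% interval -0.09 to 0.17, limma adjusted p = 0.897). GgaAffx.25709.1.S1_s_at measured 2.73, 2.80 and 2.79 in controls and 2.75, 2.75 and 2.74 in wounds, a difference of -0.03 (interval -0.09 to 0.03, adjusted p = 0.784). Both lay below the median level of the array in all arrays, overlapped between the groups and carry no rise, so the value of SERPINF1 rests on 1 probe set. The study's own annotation gave that probe set to SERPINF1 and to SERPINF2, the antiplasmin gene close by in the RefSeq table, while the annotation used here gives it to SERPINF1 alone. SERPINF2 was not analysed here under its own symbol.

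SERPINE2, the cell-surface inhibitor of thrombin and plasminogen activators, was already bright in control membrane. Its probe set (Gga.4105.2.S1_a_at) measured 8.68, 8.73 and 8.42 in the controls and 9.73, 9.56 and 9.39 in the wounds. Every wound lay at least 0.66 above every control, and replicate 3 was lowest in both tissues. The means were 8.61 ± 0.17 and 9.56 ± 0.17 (SD, n = 3 each), a rise of 0.95 (standard error 0.12), or 1.93-fold with an interval of 1.54 to 2.42 (limma adjusted p = 0.0403, 0.0523 blocked). The pairs differed by 1.05, 0.83 and 0.97. Among all probe sets at a mean level of 8 or more the median change was 0.30, and after quantile normalization the difference of SERPINE2 was 0.66 (adjusted p = 0.179). Its fold is under the limit of 2 that the study set. Its call held only without wound replicate 3 (adjusted p = 0.0481) and was lost without each other array, at 0.0839 to 0.136.

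SERPINH1, the collagen chaperone, was bright in both tissues and lower in each wound than in any control, though not by enough to pass the test. Its probe set (Gga.4168.1.S1_at) measured 10.9, 11.5 and 11.2 in the controls and 10.4, 9.89 and 10.8 in the wounds. The lowest control and the highest wound, that of replicate 3, were 0.11 apart, so the groups were barely separate. The means were 11.19 ± 0.30 and 10.36 ± 0.45 (SD, n = 3 each), a difference of -0.83 (standard error 0.28, 95% interval -1.57 to -0.09), with a limma adjusted p of 0.282. The pairs differed by -0.48, -1.61 and -0.41, with the pair of replicate 2 far from the rest. Among all probe sets at a mean level of 8 or more, a limit below the 10.8 of SERPINH1, the median change was 0.30. After quantile normalization the difference of SERPINH1 was -1.22 (adjusted p = 0.163). The difference lay between -1.04 without wound replicate 3 and -0.60 without wound replicate 2.

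SERPIND1, a thrombin inhibitor made mainly by the liver, was at the floor of the array. Its probe set (Gga.1166.1.S1_at) measured 2.32, 2.33 and 2.33 in the controls and 2.32, 2.31 and 2.60 in the wounds. Wound replicate 3 stood alone and the other 5 arrays lay within a narrow band. The difference was 0.08 (standard error 0.09, interval -0.15 to 0.32, limma adjusted p = 0.847), and -0.01 without wound replicate 3. Of 11 measured hepatocyte markers none passed the test and 3 reached the median level of the array. Over all genes 3.92% rose and 0.392% fell. Albumin and other defining genes were dim, with control levels of 2.79 for ALB, 2.51 for AHSG and 2.60 for fibrinogen alpha (FGA). The carriers APOA1 and TF were bright, at 9.72 and 9.85 in controls, and measured 2.13 (adjusted p = 0.0515) and 0.86 (adjusted p = 0.311) higher in wounds. The part of these cells or carriers in the level of SERPIND1 was not tested.

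**Figure D2:**
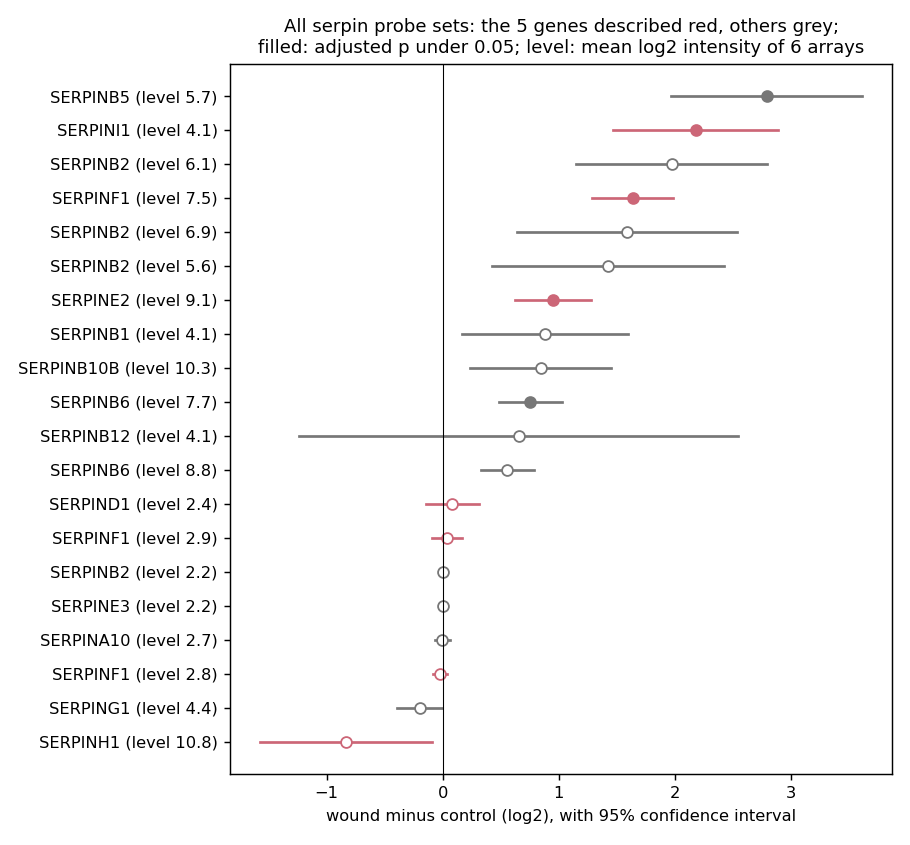
Wound minus control (log2, horizontal axis) with 95% confidence intervals for every probe set with 1 gene symbol that starts with SERPIN. The 5 genes described are red and the others grey. Filled points passed the test: SERPINB5, SERPINI1, SERPINF1, SERPINE2 and 1 probe set of SERPINB6. SERPINH1 stands lowest of those shown, at -0.83.

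The remaining serpins give the setting for these 5. Of the 9 others with a probe set of their own, 1 rose, 0 fell and 8 stayed short of the threshold. Over all genes 3.92% rose. Changes above 0 were seen in 6 of the 9, with a median of 0.66 against 0.0089 over all genes. SERPINB5 (maspin), an intracellular serpin of epithelia, rose by 2.79 (adjusted p = 0.0309, 0.0523 blocked, 0.0744 after quantile normalization). With the pairing in the fit the 1 that passed was instead SERPINB1, an inhibitor of neutrophil proteases named for that changed call (0.88, adjusted p = 0.238, 0.0475 blocked). The 4 brightest of the rest were SERPINB10B (0.85, adjusted p = 0.186), known in chicken as the chromatin protein MENT, SERPINB6 (0.56, adjusted p = 0.0580), SERPINB2 (1.59, adjusted p = 0.125), which inhibits plasminogen activators, and SERPING1 (-0.20, adjusted p = 0.323), the inhibitor of complement C1. A second probe set of SERPINB6 rose by 0.76 (adjusted p = 0.0437, 0.115 blocked). Further probe sets of SERPINB2 measured 1.97 (limma adjusted p = 0.0616) and 1.43 (adjusted p = 0.177), each with its wounds above its controls. A dim one measured 0.0052 (adjusted p = 0.983). The probe set at 1.97 stands in the study's own list of up-regulated genes. All 6 of the others with a change above 0 belong to clade B, whose members mostly stay inside the cell. SERPINE3 and SERPINA10, like SERPIND1 secreted serpins, were dim, at 2.25 and 2.68 in controls, and differed by -0.0001 and -0.0018.

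Proteases, cofactors and receptors of clotting and clot lysis, the system on which SERPINE2, SERPINI1 and SERPIND1 act, were mixed. Of 36 measured genes, 2 rose, 0 fell and 34 stayed short of the threshold, with a median change of -0.0016. Over all genes 3.92% rose and 0.392% fell. Of the 36, 21 reached the median level of the array, so dim genes weigh on that median. In 13 the wounds and controls did not overlap, against 28.6% of all genes. F2RL1, a receptor that proteases switch on by cleavage, measured 4.40, 4.70 and 4.58 in controls and 6.05, 6.08 and 5.55 in wounds and rose by 1.33 (standard error 0.17, limma adjusted p = 0.0398, 0.0892 blocked). ANXA2 (annexin A2), which gathers plasminogen and its activator on the cell surface, rose by 0.42 (standard error 0.06, adjusted p = 0.0455). Both lost their call after quantile normalization, at 1.27 (adjusted p = 0.108) for F2RL1 and 0.19 (adjusted p = 0.118) for the bright ANXA2. The brightest that did not pass were S100A10, the partner of ANXA2 (0.40, adjusted p = 0.348), and PRSS23, a secreted serine protease (-0.77, adjusted p = 0.269). Chosen after their values were seen, PLAU (urokinase) measured 0.56 (adjusted p = 0.807) with overlapping groups, tissue factor (F3) 1.12 (adjusted p = 0.0835) and the protease inhibitor TFPI2 -1.80 (adjusted p = 0.198). Thrombin (F2) and plasminogen (PLG), whose proteins come from the liver through the blood, were dim or nearly so, at 2.27 and 3.11 in controls, and differed by -0.0017 and -0.0098.

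Sulfated sugar chains bind SERPINE2 and SERPIND1 and speed their reactions. Of 35 measured genes for their core proteins and enzymes, 0 rose and 0 fell (limma; 2 higher and 6 lower at an unadjusted p under 0.05, and 0 with limma's trend and robust options), and 27 had changes below 0, with a median of -0.21, where 43.0% of all genes lay below 0. Only 28 of the 35 reached the median level of the array, so dim genes weigh on that count. Over all genes 3.92% rose and 0.392% fell. The brightest of the 35 were decorin (DCN), a dermatan sulfate proteoglycan at -0.48 (adjusted p = 0.103), and the syndecan SDC2 at -0.21 (adjusted p = 0.576). Receptors for PEDF and for the uptake of serpin complexes did not pass the test in any of 11 measured genes (limma; 2 higher and 1 lower at an unadjusted p under 0.05, and 0 with trend and robust options), with a median of -0.0012. The brightest were ATP5B (0.17, adjusted p = 0.796) and LRPAP1 (0.31, adjusted p = 0.199). The protein of ATP5B has been described as a PEDF receptor at the cell surface, and LRPAP1 is the chaperone of the uptake receptors. The receptors LRP1, LRP6 and LRP8 were dim, at 2.22, 2.71 and 2.69 in controls, so a change in them could go undetected.

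SERPINH1 works beside a group of enzymes and chaperones that fold and modify collagen. Of 32 other measured genes of collagen folding and processing, 2 rose, 1 fell and 29 stayed short of the threshold. Over all genes 3.92% rose and 0.392% fell. The median change of the 32 was -0.0057 (-0.24 after quantile normalization). P4HB, the disulfide isomerase that is also a subunit of prolyl 4-hydroxylase, measured 10.88, 10.99 and 10.88 in controls and 11.44, 11.38 and 11.50 in wounds and rose by 0.52 (standard error 0.05, limma adjusted p = 0.0209, 0.0777 blocked). CANX (calnexin), a chaperone of glycoproteins, rose by 0.47 (standard error 0.07, adjusted p = 0.0499). COLGALT1, which adds galactose to collagen, measured 4.16, 4.13 and 4.11 in controls and 3.73, 3.81 and 3.71 in wounds and fell by 0.38 (standard error 0.03, adjusted p = 0.0187, 0.0611 blocked). The brightest that did not pass were the matrix protein SPARC (-0.43, adjusted p = 0.552) and PPIB, the proline isomerase of the endoplasmic reticulum (0.07, adjusted p = 0.835). After quantile normalization P4HB differed by 0.11 and CANX by 0.25, and COLGALT1 by -0.41, and none of the 3 passed the test.

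Other genes of that group lay on both sides of 0. The genes in this paragraph were chosen after their values were seen and none of them passed the test. The chaperone HSPA5 (BiP) measured 0.80 (adjusted p = 0.0533), PDIA4 0.77 (adjusted p = 0.0816) and HSP90B1 0.58 (adjusted p = 0.0777), each with its 3 wounds above its 3 controls. After quantile normalization the 3 differed by 0.42, 0.43 and 0.23. CALR (calreticulin), also a chaperone of the endoplasmic reticulum, measured 0.02 with overlapping groups, and KDELR3, a receptor that retrieves proteins to it, -0.70 (adjusted p = 0.370), also with overlap. P3H1, a prolyl 3-hydroxylase of collagen, measured -0.73 (adjusted p = 0.260), P3H3 -0.96 (adjusted p = 0.189) and P3H4 -0.95 (adjusted p = 0.176), each with its wounds below its controls. The lysyl hydroxylase PLOD2 measured 1.35 (adjusted p = 0.136) and the prolyl 4-hydroxylase subunit P4HA2 0.83 (adjusted p = 0.420), both with wounds above controls.

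**Figure D3:**
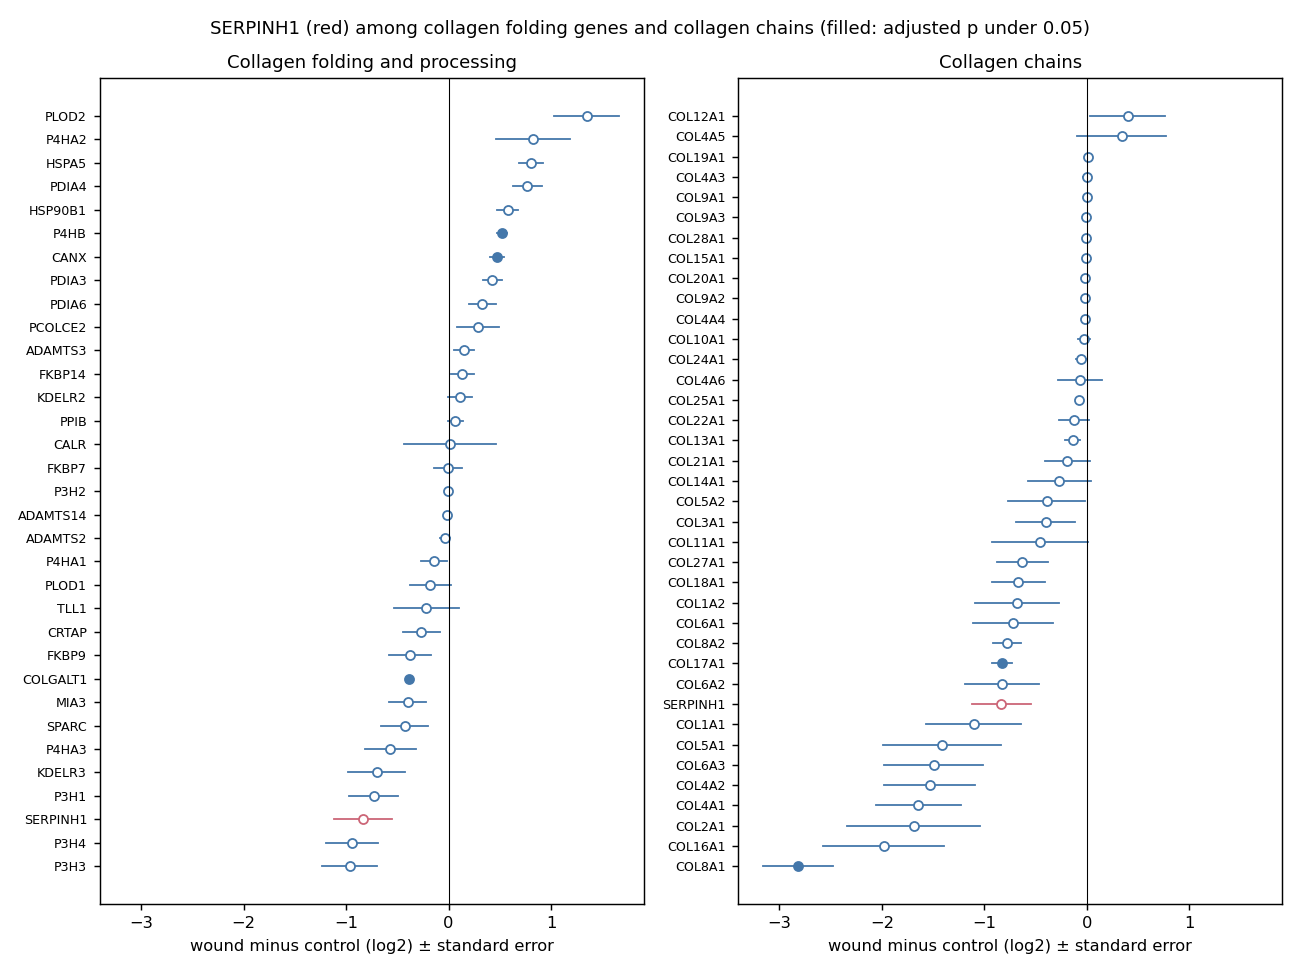
Wound minus control (log2, horizontal axis, with standard errors) for SERPINH1 in red among 32 genes of collagen folding and processing and among 37 collagen chains. Filled points passed the test. SERPINH1 at -0.83 stands near the lower end of the folding genes, beside P3H4 at -0.95 and P3H3 at -0.96, and within the range of the collagen chains.

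The collagen chains, the clients of SERPINH1, lay mostly below 0. Of 37 measured chains, 0 rose, 2 fell and 35 stayed short of the threshold, where 0.392% of all genes fell. Changes below 0 were seen in 32 of the 37, where 43.0% of all genes lay below 0, and their median was -0.27 over the 37. Only 28 of the 37 reached the median level of the array, so dim genes weigh on that count and median. The count below 0 includes dim chains with changes near 0, such as COL9A3 (-0.0048) and COL28A1 (-0.0090). COL8A1, a collagen found in the walls of vessels, measured 7.82, 7.41 and 7.34 in controls and 5.03, 4.01 and 5.08 in wounds and fell by 2.82 (standard error 0.34, limma adjusted p = 0.0353, 0.0710 blocked). COL17A1, a membrane collagen of epithelial anchoring junctions, fell by 0.82 (standard error 0.10, adjusted p = 0.0339, 0.110 blocked). Neither passed after quantile normalization, at -2.93 (adjusted p = 0.0654) and -1.002 (adjusted p = 0.0509). The brightest chains were COL1A1, which measured 13.2, 13.2 and 13.3 in controls and 11.8, 11.5 and 13.1 in wounds, a difference of -1.10 (adjusted p = 0.397), and COL3A1 at -0.40 (adjusted p = 0.715). Wound replicate 3 was the wound nearest to the controls in COL1A1, as in SERPINH1. Without that array 7 chains fell and the median of all 37 was -0.57. Calls over all probe sets, in either direction, went from 902 to 1211 in that fit, and the share of all genes that fell in it is not given. Without control replicate 3 no chain and no gene of the other lists above passed the test, and of all probe sets only 32 did.

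Array by array, SERPINH1 and the collagen chains lay nearest to the controls in the same wound. Relative to the control mean SERPINH1 measured -0.78, -1.31 and -0.41 in wounds 1, 2 and 3, and the median collagen chain -0.48, -0.50 and -0.06. Fibroblast markers had medians of -0.50, -0.84 and -0.10 in the same 3 wounds and endothelial markers -0.96, -0.77 and -0.30. Wound replicate 3 was thus the nearest to the controls in SERPINH1 and these 3 lists. That trait was not particular to them. Smooth muscle markers had medians of -1.46, -1.80 and -0.14, and genes of sulfated sugar chains -0.22, -0.26 and -0.02. Not every list shared it, as myeloid markers had medians of 2.31, 2.39 and 2.45. The collagen folding genes had medians of -0.01, -0.10 and 0.07, lowest in wound replicate 2 and highest in wound replicate 3, as in SERPINH1. These medians were all close to 0, and the nearest to it was that of wound replicate 1. In the controls SERPINH1 measured -0.30, 0.30 and -0.0007, a wider spread than any of those medians.

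**Figure D4:**
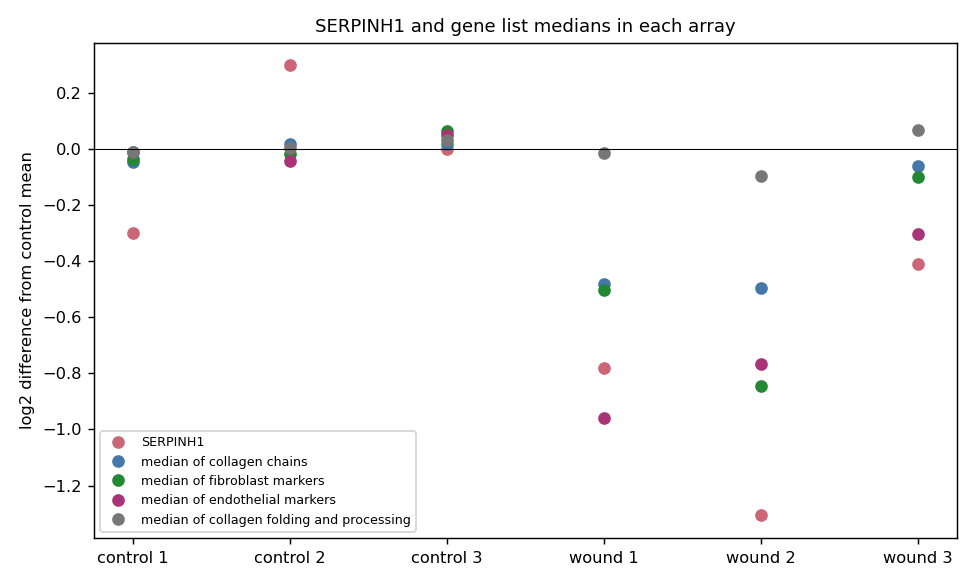
Log2 difference from the control mean (vertical axis) in each of the 6 arrays for SERPINH1 and for the medians of 4 gene lists. In the wounds SERPINH1 measured -0.78, -1.31 and -0.41, and the medians of collagen chains, fibroblast markers and endothelial markers are all nearest to 0 in wound 3. The median of collagen folding genes is nearest to 0 in wound 1, at -0.01.

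Markers of cell types were measured beside these genes, and their part in the results was not tested. The marker lists were chosen with earlier results of these arrays known, so their counts are a description. Most myeloid markers rose, and few markers of the other types passed the test. For comparison, 3.92% of all genes rose, 0.392% fell, 28.6% had no overlap between the groups and 43.0% lay below 0. With the pairing in the fit 1.45% of all genes passed in either direction. Of 12 measured myeloid markers 9 rose and all 12 had their wounds above their controls, with a median change of 2.41 (2 rose blocked). All 12 stand, by gene, in the study's own list of up-regulated genes from the same arrays. The summed linear intensity of those markers ran from 2277 to 3004 in controls and from 9909 to 11471 in wounds. Of 12 fibroblast markers 0 rose and 1, TCF21, fell (-1.52, adjusted p = 0.0309, 0.0775 blocked), and 11 had changes below 0. The remaining marker measured 1.40 with its wounds above its controls, and did not pass the test. Summed linear intensities of the fibroblast list were 44532 to 48238 in controls and 24032 to 45732 in wounds. Of 12 endothelial markers 0 rose and 1, EGFL7, fell (-1.18, adjusted p = 0.0384, 0.121 blocked), with sums of 5464 to 6323 and 2796 to 4669. Of 5 smooth muscle markers none passed the test, and their median was -1.46, with sums of 2265 to 2783 and 583.4 to 3654. The fibroblast list shares COL1A1, COL1A2 and COL3A1 with the collagen chains. TCF21 and EGFL7 stand in the study's own list of down-regulated genes. Of 9 epithelial markers 2 rose, CLDN1 (0.79, adjusted p = 0.0110) and EPCAM (0.73, adjusted p = 0.0147, 0.0541 blocked), with sums of 12166 to 13072 and 19641 to 20730. Both are bright, and after quantile normalization they differed by 0.44 (adjusted p = 0.0816) and 0.45 (adjusted p = 0.0581). No marker is listed at 0, and ROBO4 of the endothelial list was dim, at 2.22 in controls.

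For each leading probe set above the median level, the 3 genes of most similar pattern were sought among 9336 others of that brightness, by the root mean square difference of log2 values over the 6 arrays after each gene was centred on its own mean. Nearest to SERPINF1 were BCAT1, an aminotransferase, LBP, which binds bacterial lipopolysaccharide, and MS4A4A, a membrane protein of macrophages, at 0.10, 0.11 and 0.12. Nearest to SERPINI1 were IL2RG, a chain of interleukin receptors, EPHX3, an epoxide hydrolase, and PINLYP, at 0.19, 0.20 and 0.21. The study's own annotation gave the probe sets of LBP, MS4A4A and EPHX3 to BPI, MS4A15 and ABHD7, so the names of these genes are uncertain. Nearest to SERPINE2 were the membrane protein TMEM41B, the proteasome subunit PSMA3 and the proteasome assembly factor POMP, at 0.04, 0.07 and 0.08. SERPINH1 had COLEC10, a collectin, P3H4 and DACT1, a regulator of Wnt signalling, nearest, at 0.11, 0.13 and 0.15. P3H4, a collagen modification protein, measured 4.35, 4.75 and 4.66 in controls and 3.50, 3.29 and 4.13 in wounds, with the same array lowest in each group as in SERPINH1. The search covers 6 arrays in 2 groups and is a description.

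The genes that flank the 5 in the RefSeq table (assembly GRCg7b), chosen after the members' values were seen, mostly did not pass the test. Of 10 flanking genes 1 rose, where 3.92% of all genes did. It was RPA1 beside SERPINF1, a single-strand DNA-binding subunit (0.39, adjusted p = 0.0238, 0.0577 blocked). SMYD4, whose span in that table takes in SERPINF1, measured 0.24 (adjusted p = 0.501). PDCD10, next to SERPINI1, measured 0.63 (adjusted p = 0.0922), and the neighbour on its other side, LOC425001, -0.0028 (adjusted p = 0.998). WDFY1 beside SERPINE2 measured 0.57 (adjusted p = 0.209), and the ribosomal protein gene RPS3 beside SERPINH1 0.17 (adjusted p = 0.291).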

How the data were processed

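Each of 3 eggs gave a wound and a control CAM sample, and each sample was hybridised to 1 Affymetrix chicken GeneChip. The authors deposited RMA values of each probe set on a log2 scale, made in R (version not given in the sources used here). Global scaling, which the methods name besides, gives linear signals that these values are not. Scanner files were not used here, so background correction and scan batches could not be varied, and the number of arrays limits the precision. Of 38535 probe sets 96 controls were left out. The platform annotation gave 27168 of the rest 1 symbol, 177 several and 11094 none, and names were taken only from the first. All 5 symbols matched the RefSeq table. All 6 value columns were used.

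Wounds and controls were compared with limma 3.58.1 in R 4.3.3, by lmFit and eBayes, and p-values were adjusted by Benjamini and Hochberg over 38439 probe sets. The members, lists and rule for named genes were chosen with earlier results of these data known. The rule names the 5 genes, other serpins past the test and the 4 brightest not, in each list up to 4 genes past the test and the 2 brightest not, and the 3 nearest patterns. Lists hold each gene by its brightest probe set. After removal of group means, arrays of equal replicate number correlated at 0.58, 0.63 and 0.45 (Pearson's r, across probe sets that are no independent replicates), and the study took each control from the egg of a wound, so equal numbers were treated as pairs. Arrays were also simulated for this comparison, with 38439 probe sets. Their noise was drawn independently for each probe set and array, so they hold neither the pairing nor the shift of bright probe sets. On these simulated arrays limma recovered 49 of 67 changes of size 1 (log2), 57 of 67 of size 2 and 62 of 66 of size 3. It made 24 false calls, a larger share of its calls than the threshold on adjusted p allows on average. The counts are not split by brightness or spread, so they do not give the power for the 5 genes. Alternatives were other array scalings, the replicate block, limma with trend and robust options, and dropping dim probe sets. Thresholds and probe sets were also varied, and each array was left out in turn. A further alternative was SAM with a rank-sum statistic, rebuilt here after the methods over the 20 relabellings of 6 arrays. Its outcome is not the study's: the study's own list of up-regulated genes holds the leading probe sets of SERPINI1 and SERPINF1. List values without wound or control replicate 3, and the flanking genes, were chosen after seeing the data. Tables and plots used Python 3.11.15, pandas 2.3.3 and matplotlib 3.10.9.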

Additional observations from a re-analysis of the deposited data

How the results depend on the processing

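SERPINF1, SERPINE2, SERPINI1 and SERPINH1 kept their direction, by the brightest probe set, in all alternatives run. Under the replicate block SERPINE2 (0.95, adjusted p = 0.0523) and SERPINI1 (2.18, adjusted p = 0.0502) lost their call, and the block changed no other call among the 5. Quantile normalization ended the same 2 calls, at 0.66 and 2.13, the latter with adjusted p = 0.0721. A fold over 2 ended the call of SERPINE2 (0.95). SAM's rank sum gave SERPINF1, SERPINE2 and SERPINI1, with differences of 1.64, 0.95 and 2.18, a false discovery rate of 0.294. SERPINH1, which did not pass the main test, had the same rate. As that setting passed 0 of all probe sets, it cannot decide whether these 3 calls hold. SERPINF1 by its dimmer probe sets gave 0.0389 and -0.0270, the latter reversed. By the mean of its probe sets it measured 0.55 and kept its call. That mean carries the change of the leading probe set, as the dimmer ones were flat, so it is no separate measure. Leaving out 1 array moved SERPINF1 between 1.50 and 1.71, SERPINE2 between 0.86 and 1.04, SERPINI1 between 1.94 and 2.40, SERPINH1 between -1.04 and -0.60 and SERPIND1 between -0.0133 and 0.13, the last reversed without wound replicate 3. SERPINF1 was called in 3 of these 6 fits, SERPINE2 in 1 and SERPINI1 in 0.

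Of all probe sets 902 passed the test, with 177 after quantile normalization, 1788 with the filter on dim probe sets, 315 with the replicate block, 460 with trend and robust options, 258 with a fold over 2, 1910 at an adjusted p under 0.10, 0 by SAM and from 32 to 1211 without 1 array. List counts varied, not always with that total: over the alternatives collagen chains past the test numbered 0 to 7 (main 2), collagen folding genes 0 to 6 (3), clotting genes 0 to 5 (2), other serpins 0 to 3 (1), myeloid markers 0 to 12 (9), endothelial markers 0 to 5 (1), epithelial markers 0 to 3 (2) and fibroblast markers 0 to 2 (1). The causes were not tested. Dim probe sets such as that of SERPIND1 leave a change of a weakly expressed gene undetectable here.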
